A study of Mus musculus with 30 samples.

Results

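Transcripts of 10 genes that mark T lymphocytes and natural killer (NK) cells (Cd3d, Cd3e, Cd3g, Lck, Cd8a, Nkg7, Gzma, Gzmb, Klrd1 and Ms4a4b) were followed through 8 populations of monocytes and macrophages sorted from glioma-bearing mice. They are 10 of the 45317 gene symbols in the count tables. The genes were chosen because transcripts of this kind were lower in Ly6Chigh than in Ly6Clow blood monocytes in these same libraries, so their levels in blood are given as a description, without a test. The summed level of the 10 genes, scaled between libraries by TMM, was lowest in Ly6Chigh blood monocytes and of the same order in Ly6Clow blood monocytes and in all 6 populations from the tumor-bearing brain. In 9 comparisons between brain populations none of the 10 genes passed the test.

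All mice were C57BL6.CCR2RFP/WT, in which 1 copy of the chemokine receptor gene Ccr2 carries a red fluorescent reporter, and were 12 to 18 weeks old. Each carried an intracranial tumor of GL261, a mouse glioma line syngeneic to the host, that expressed a palmitoylated GFP anchored in cell membranes, so no population came from a tumor-free animal. From blood, Ly6Chigh (inflammatory) and Ly6Clow (patrolling) monocytes were sorted as CD45 high, CD115 high and CD11c low cells, and the sample labels give brain as the tissue of these samples too. From brain, cells high in CD11b and CD45 were sorted into glioma monocytes (F4/80 present, Ly6C high), CCR2high macrophages and CCR2low macrophages, and each of the 3 was split into GFPneg cells and GFPpos cells, which had taken up GFP from the tumor. The antibodies named for the sorts held none against CD3, NK1.1 or another lymphocyte marker, so lymphocytes were set apart only by the myeloid markers.

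The CD3 subunits (Cd3d, Cd3e, Cd3g) form the signalling part of the T cell receptor, the kinase Lck starts its signal, and Cd8a encodes a chain of the co-receptor of cytotoxic T cells. Cytotoxic T cells and NK cells share a granule program, in which the granzymes Gzma and Gzmb are the proteases delivered into a target cell and Nkg7 is a protein of the granule membrane. Klrd1 encodes CD94, the partner of NKG2 receptors on NK cells and some CD8 T cells, and Ms4a4b is a membrane protein of T and NK cells. Lymphocytes are known to infiltrate gliomas beside myeloid cells.

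The 3 CD3 genes lie together on chromosome 9, where Cd3d and Cd3g start 1355 bases apart on opposite strands and Cd3e starts 27841 bases from Cd3d. The other 7 genes lie apart from this cluster on chromosomes 4 (Lck), 6 (Klrd1 and Cd8a), 7 (Nkg7), 13 (Gzma), 14 (Gzmb) and 19 (Ms4a4b). The 250 bases before the start of 4 genes are shown because CD3 and granule transcripts stood in other ratios in blood and in brain. They were read 5′ to 3′ on the strand of the gene from RefSeq on GRCm38.p6, with matches on either strand to the RUNX letters TGTGGT or TGCGGT and the ETS letters CAGGAAG or CCGGAAG in capitals.
Cd3e, minus strand, chr9:45009612-45009861: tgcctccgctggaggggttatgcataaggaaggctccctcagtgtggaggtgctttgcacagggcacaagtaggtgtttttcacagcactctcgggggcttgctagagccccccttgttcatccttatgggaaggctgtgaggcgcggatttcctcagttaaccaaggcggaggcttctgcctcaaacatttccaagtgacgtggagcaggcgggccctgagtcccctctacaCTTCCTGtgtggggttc
Nkg7, plus strand, chr7:43436888-43437137: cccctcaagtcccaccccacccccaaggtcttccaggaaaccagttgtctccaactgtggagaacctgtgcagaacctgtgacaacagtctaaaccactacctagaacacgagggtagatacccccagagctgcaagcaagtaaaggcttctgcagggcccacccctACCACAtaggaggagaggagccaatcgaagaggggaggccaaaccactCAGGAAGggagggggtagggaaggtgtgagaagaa
Gzma, minus strand, chr13:113100982-113101231: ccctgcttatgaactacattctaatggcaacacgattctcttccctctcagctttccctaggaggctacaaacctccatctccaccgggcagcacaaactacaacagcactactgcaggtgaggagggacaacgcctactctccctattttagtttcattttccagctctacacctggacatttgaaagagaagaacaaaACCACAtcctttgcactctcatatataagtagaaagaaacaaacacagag
Gzmb, minus strand, chr14:56262335-56262584: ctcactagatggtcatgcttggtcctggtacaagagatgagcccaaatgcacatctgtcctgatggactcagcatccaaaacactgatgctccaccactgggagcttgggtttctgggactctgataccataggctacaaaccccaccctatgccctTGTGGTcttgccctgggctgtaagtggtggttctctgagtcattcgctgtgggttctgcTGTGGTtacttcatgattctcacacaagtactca
Within 300 bases around the start, Gzmb held 2 RUNX matches, Gzma 1, Nkg7 1 with 1 ETS match, and Cd3e 1 ETS match and no RUNX match. Lck held 1 RUNX and 2 ETS matches and Cd8a 1 RUNX match, while Cd3d, Cd3g and Ms4a4b held neither. RUNX letters were found in 22.4% and ETS letters in 20.9% of 32851 promoters of this length, so such matches are common, and they are a description of the sequence only. Of the 10 genes, 9 had a promoter entry and Klrd1 did not.

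Messenger RNA was read in 28 replicates, each from 1 mouse, 3 per monocyte population and 4 per macrophage population. A replicate held between 1553616 and 5689644 counts on genes (median 2140229.5). Levels are given in CPM, counts scaled to a library of fixed size, after TMM scaling between replicates, and values for the mice are listed in the order 22, 23, 24 and 26 (blood: 22, 23 and 24; glioma monocytes: 22, 24 and 26). The Ly6Clow replicate of mouse 23 stood apart, with 13.3% of its counts on spike-in RNA and 6475 genes with at least 5 reads. Csf1r, the receptor that defines monocytes and macrophages, was present in every population, from 1945 to 3940.4 CPM in Ly6Clow blood monocytes, which held the lowest replicate, and from 2897 to 3549 CPM in GFPpos CCR2low macrophages.

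The summed level of the 10 genes in Ly6Chigh blood monocytes was 333, 66.8 and 87.2 CPM (162 ± 148, SD, n = 3). Ly6Clow blood monocytes held 2129.9, 1639 and 1215 CPM (1661 ± 458, SD, n = 3). The blood populations did not overlap, as the choice of the genes implies, and mouse 22 was the highest of both.

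Among the brain populations, GFPneg glioma monocytes held 1145, 2423 and 1027 CPM and GFPpos glioma monocytes 1888, 2529 and 806 CPM. The sums in GFPneg CCR2high macrophages were 1384, 1815, 3100.0 and 1008 CPM and in GFPpos CCR2high macrophages 799, 1462, 1731 and 716 CPM. Mouse 24 was the highest and mouse 26 the lowest in each of these 4 populations.

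GFPneg CCR2low macrophages had the highest mean, with 1516, 3276, 2015 and 1810.5 CPM (2154 ± 775, SD, n = 4). GFPpos CCR2low macrophages had the lowest mean of the brain populations, with 720.1, 1540.3, 1105 and 594 CPM (989.7 ± 427, SD, n = 4). In order of the mean, the populations ran from Ly6Chigh blood monocytes over GFPpos CCR2low and GFPpos CCR2high macrophages, GFPneg glioma monocytes, Ly6Clow blood monocytes, GFPpos glioma monocytes and GFPneg CCR2high macrophages to GFPneg CCR2low macrophages. Only Ly6Chigh blood monocytes did not overlap with their neighbor in this order. The order depended on the scaling. Scaling by spike-in RNA was an alternative added after the data were seen. The mean sums were then 244 CPM in Ly6Chigh and 684 CPM in Ly6Clow blood monocytes. GFPpos glioma monocytes had 589 CPM and the other brain populations 1401 to 2922 CPM. The blood replicates then overlapped, through the Ly6Clow replicate of mouse 23, while Ly6Clow stayed higher in each mouse. By mouse, the Ly6Clow sums were 713, 80.2 and 1260 CPM and the Ly6Chigh sums 438, 40.8 and 253 CPM. Without mouse 22 the Ly6Chigh mean after TMM scaling was 80.8 CPM. In bulk RNA of sorted cells, fewer cells of a type and less RNA per cell cannot be told apart.

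**Figure D1:**
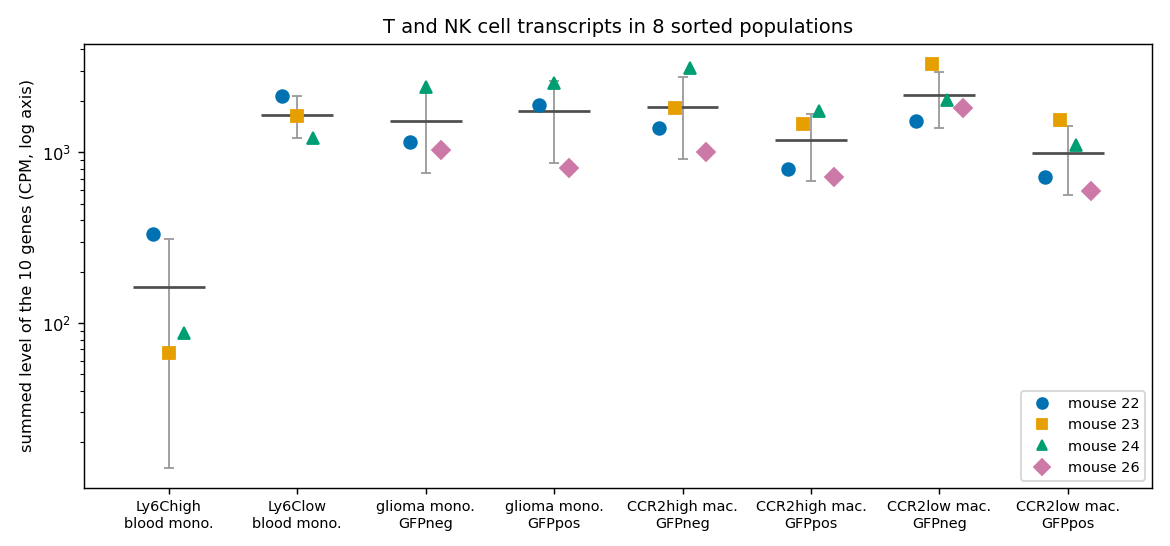
Summed level of the 10 genes in CPM on a log axis, 1 symbol per replicate and mouse, with the mean (line) and SD (bar) of each of the 8 populations. The 3 Ly6Chigh replicates lie below every other replicate, and all other neighboring populations overlap.

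Each of the 10 genes had counts in all 22 brain replicates. The lowest and highest brain replicate differed by 5.92 times for Lck and 30.8 times for Cd8a, the narrowest and the widest range among the genes. Compared per kilobase of exon, the mean brain level was highest for Nkg7 (342 CPM per kb), Gzmb (265) and Gzma (155), followed by Lck (60.5). The CD3 subunits had 44.7 (Cd3d), 37.6 (Cd3g) and 24.5 (Cd3e) CPM per kb, Klrd1 29.3, Ms4a4b 16.6 and Cd8a 13.6. Granule transcripts were thus the most abundant of the set in the brain per kilobase. The length used joins the exons of all annotated transcripts of a gene, from 914 bases for Nkg7 to 8780 for Ms4a4b. Without division by length the brain median was highest for Gzmb (337 CPM) and Nkg7 (314), followed by Lck (167), Gzma (126) and Ms4a4b (124).

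**Figure D2:**
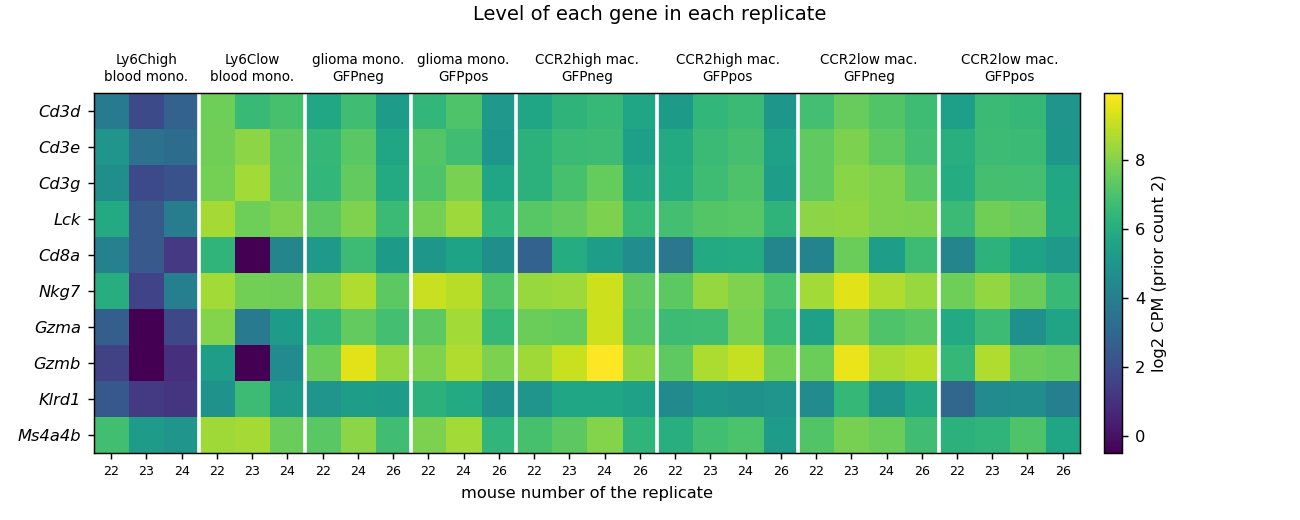
Level of each gene (rows) in each replicate (columns, labelled by mouse number and grouped by population) as log2 CPM with a prior count of 2. The CD3 rows are dark in the Ly6Chigh columns, and the Gzmb row is dark in all 6 blood replicates and bright in the brain.

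In blood, the CD3 subunits and Lck were lower in Ly6Chigh than in Ly6Clow monocytes in every mouse. Cd3e, the subunit bound by common anti-CD3 antibodies, was at 30.9, 9.96 and 8.57 CPM in Ly6Chigh and 208, 279.5 and 166 CPM in Ly6Clow replicates, a fitted log2 fold change of -3.75 ± 0.61 (SE). Cd3g was at 25.8, 2.93 and 3.76 CPM against 219.8, 362 and 172 CPM. Lck was at 59.5, 4.69 and 14.8 CPM against 375, 204 and 245 CPM. For each of these genes the highest Ly6Chigh replicate was that of mouse 22.

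Of the 10 genes, 8 did not overlap between the blood populations, beside 7.23% of all 11566 genes tested that were lower without overlap. Since this contrast chose the genes, nothing is read from that count. The exceptions were Gzmb and Cd8a, both of which had 0 counts in the Ly6Clow replicate of mouse 23, where 0 counts allow up to 1.16 CPM for counting error. The median fitted log2 fold change of the 10 genes was -3.90, beside 0.0234 over all genes tested, and -2.01 with spike-in scaling. The fitted values nearest 0 were those of Cd8a (log2 -2.19 ± 1.12, SE) and Ms4a4b (log2 -2.37 ± 0.58, SE), and Ms4a4b was at 109.5, 37.5 and 30.9 CPM in the Ly6Chigh replicates. A share of 2.4% of the 50-base words of Ms4a4b transcripts also occurs in other genes, among them Ms4a4c, which was at 691 ± 100.1 CPM (SD, n = 3) in Ly6Chigh monocytes. The part of such reads in the Ms4a4b level was not tested.

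Gzmb separated the brain from the blood replicates, and the CD3 subunits did not. Gzmb had 4, 0 and 6 counts in the 3 Ly6Chigh replicates and 83, 0 and 78 counts in the 3 Ly6Clow replicates, which is 39.2, 0 and 23.1 CPM. In the brain, Gzmb ran from 89 to 999 CPM, and its lowest brain replicate was above its highest blood replicate. The Ly6Clow mean of Gzmb (20.7 CPM) includes the 0 of mouse 23, a replicate with 6475 genes at 5 or more reads. The mean of Gzmb in the brain populations was 10.6 to 26.4 times that in Ly6Clow monocytes, while the corresponding range was 0.458 to 0.98 for Cd3d and 0.345 to 0.786 for Cd3e. These folds share the blood replicates that chose the genes and are descriptions.

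Gzma, the other main granzyme, was at 258, 13.5 and 37.6 CPM in Ly6Clow monocytes and at 26.7 to 573 CPM across the brain replicates, so the 2 ranges overlapped. Nkg7 was at 367, 212 and 207 CPM in Ly6Clow monocytes and at 93.6 to 715 CPM in the brain, again with overlap. Of the 10 genes, Gzmb alone had a brain range wholly above both blood populations.

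Granzyme counts (Gzma and Gzmb together) were set against CD3 counts (Cd3d, Cd3e and Cd3g together) within each replicate, a ratio that does not depend on the scaling between libraries. Ly6Clow monocytes had 0.474, 0.0184 and 0.132 granzyme counts per CD3 count. The 22 brain replicates ran from 0.528 to 4.25, with a median of 1.73. No brain replicate reached down to the highest Ly6Clow value, though 0.528 lay close to 0.474. The lowest Ly6Clow value was that of mouse 23, the replicate with 13.3% of its counts on spike-in RNA. This contrast shares the blood replicates that chose the genes, so it is a description only.

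**Figure D3:**
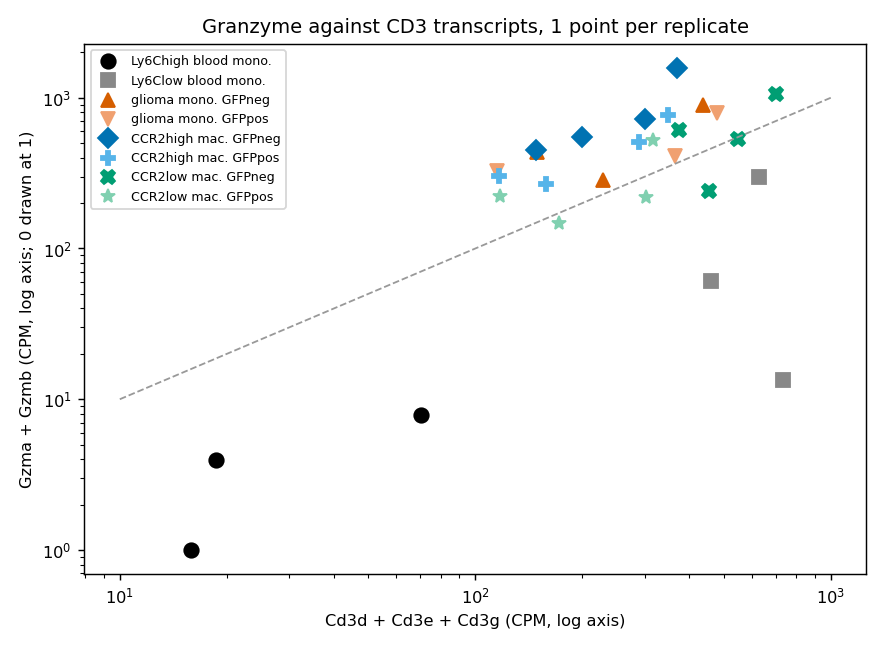
Summed Gzma and Gzmb level against summed Cd3d, Cd3e and Cd3g level, both in CPM on log axes, 1 point per replicate, with the dashed line at equal levels. The 6 blood replicates lie below the line, and most brain points lie above it. The Ly6Clow points lie at CD3 levels of 460 to 735 CPM, in the upper part of the brain range (highest 700 CPM) or above it.

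Within the brain the ratio varied among macrophages. GFPneg CCR2high macrophages had 2.74, 2.4, 4.25 and 3.04 granzyme counts per CD3 count, and GFPpos CCR2high macrophages had 1.69, 1.77, 2.2 and 2.6. GFPneg CCR2low macrophages had 0.528, 1.51, 0.969 and 1.63 and GFPpos CCR2low macrophages 0.861, 1.67, 0.729 and 1.9. All 4 GFPneg CCR2high values lay above all 8 CCR2low values.

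Glioma monocytes overlapped with both macrophage types, with 1.25, 2.04 and 2.91 granzyme counts per CD3 count in GFPneg and 1.12, 1.65 and 2.83 in GFPpos cells. In both, mouse 22 was lowest and mouse 26 highest. These ratios were not tested, since they combine members of the set.

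The comparison of GFPpos with GFPneg cells asks whether taking up tumor membrane goes with a different transcriptome. In CCR2low macrophages all 10 genes had lower means in GFPpos cells, and the fitted log2 fold changes ran from -1.49 to -0.95 with a median of -1.13, beside 0.0158 over all genes tested. None of the 10 passed edgeR's quasi-likelihood test after Benjamini-Hochberg adjustment, in a comparison where 0.0% of the 11566 genes tested passed. Without adjustment 5 of 10 were lower at p under 0.05, beside 1.23% of all genes, and 8 of 10 were lower in each of the 4 mice, beside 8.52% of all genes. When libraries were scaled by spike-in RNA, where the median of all genes was 0.36, the median of the 10 was -0.85 and none had an unadjusted p under 0.05. The count of 5 rested on single libraries. It was 1 without the GFPneg library of mouse 23 or the GFPpos library of mouse 26. It was 2 without GFPneg mouse 24 or GFPpos mouse 22, and 8 without GFPpos mouse 23 or with only the 2 populations in the fit. The share of all genes under this threshold was not taken in these fits.

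Of the receptor genes, Cd3e was at 171, 238, 164 and 113 CPM in GFPneg and 67.9, 101, 99.5 and 32.4 CPM in GFPpos CCR2low macrophages, which do not overlap. Its fitted log2 fold change was -1.18 ± 0.47, unadjusted p = 0.0184, adjusted p = 1 (edgeR, SE). Cd3d (115, 187, 138 and 103 against 42.2, 99.1, 88.5 and 30.9 CPM) and Cd3g (170.1, 275, 247 and 157 against 62.3, 117, 114 and 53.9 CPM) were also separated, at log2 -1.05 ± 0.47 and -1.29 ± 0.54 (SE). Each of the 3 subunits was lower in the GFPpos cells of all 4 mice. Lck followed with 280.2, 296, 245 and 239 against 98.4, 208, 184 and 58.1 CPM (log2 -0.95 ± 0.50, SE), while Cd8a was lower in 2 of 4 mice (18.2, 194, 40.2 and 102 against 18.7, 75.6, 46.6 and 35.6 CPM).

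Klrd1 had the largest fitted difference of the set in this comparison. It was at 22.6, 88, 29.6 and 56.4 CPM in GFPneg and 7.03, 23, 23.9 and 15.7 CPM in GFPpos cells, with a log2 fold change of -1.49 ± 0.48, unadjusted p = 0.00427, adjusted p = 1 (edgeR, SE). The ranges overlapped, because the GFPneg value of mouse 22 lay below the GFPpos values of mice 23 and 24.

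Of the granule genes, Nkg7 was at 361, 715, 424 and 327 against 201, 309, 193 and 93.6 CPM without overlap (log2 -1.19 ± 0.56, unadjusted p = 0.0425, adjusted p = 1, edgeR, SE). Gzmb was at 196, 813, 395 and 453 against 89, 425, 194 and 174 CPM, lower in 4 of 4 mice but with overlap. Gzma was at 44.6, 246, 136 and 154 against 59.5, 102, 26.7 and 48.6 CPM and was lower in 3 of 4 mice. Ms4a4b was at 138, 224, 197 and 107 against 74, 80.3, 134 and 50.7 CPM, lower in 4 of 4 mice. In all, 5 of 10 genes did not overlap between the groups, beside 1.7% of all genes that were lower without overlap.

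Set against each other within a mouse, the GFPpos sum of the 10 genes was 0.475, 0.47, 0.548 and 0.328 times the GFPneg sum in mice 22, 23, 24 and 26, and with spike-in scaling it was lower in 3 of 4 mice. Markers of B cells, plasma cells and neutrophils had fitted medians in the same direction. The 8 B cell markers summed to 159 to 1065 CPM in GFPneg and 115 to 549 CPM in GFPpos CCR2low macrophages, 4 plasma cell markers to 365 to 1792 and 123 to 1051 CPM, and 8 neutrophil markers to 99.1 to 2168 and 9.37 to 851 CPM. Microglia markers summed to 3177 to 8268 and 3113 to 5041 CPM with 5 of 6 below 0, dendritic cell markers had 4 of 7 and platelet markers 2 of 3 below 0, and erythroid markers had 4 of 4 above 0. Of the other tested markers, 6 of 7 B cell, 2 of 3 plasma cell and 8 of 8 neutrophil genes had fitted log2 fold changes below 0, and no B cell, plasma cell, neutrophil or microglia marker was at 0 in every replicate of either group. With spike-in scaling the medians of the B cell (-0.38) and plasma cell (-0.48) markers kept this sign and those of the neutrophil (0.15) and microglia (0.14) markers turned, beside 0.36 over all genes. Their part in the result was not tested. The 11 monocyte and macrophage markers summed to 8838 to 15697 and 12973 to 17394 CPM, with 8 of 11 above 0.

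In CCR2high macrophages the fitted values of the CD3 subunits lay nearer 0. The 10 genes had a median log2 fold change of -0.52 (GFPpos over GFPneg), beside 0.00862 over all genes, with 8 of 10 below 0. None passed edgeR's quasi-likelihood test or had an unadjusted p under 0.05, beside 0.0% and 0.597% of all genes. The sum in GFPpos cells was 0.577, 0.805, 0.558 and 0.71 times that in GFPneg cells of the same mouse. Of the set, 7 of 10 genes were lower in all 4 mice, beside 6.92% of all genes. These were the granule genes, Klrd1, Ms4a4b and the T cell receptor genes Cd3g (log2 -0.34) and Lck (log2 -0.43). Of the lists that hold none of the 10 genes, 19 of 28 T cell genes (median -0.35) and 21 of 22 tested NK and granule genes (median -0.73) were below 0, and none passed after adjustment. Dendritic cell (7 of 7, median -0.25) and B cell markers (4 of 7) were below 0 too. Neutrophil (8 of 8, median 0.77), microglia (4 of 6), plasma cell (2 of 3), platelet (2 of 3) and erythroid markers (3 of 4) were above 0. Their part in the result was not tested.

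Cd3e stood at 73.8, 100.1, 102 and 41.4 CPM in GFPneg and 59.5, 98.1, 117 and 44 CPM in GFPpos CCR2high macrophages, lower in 2 of 4 mice. Gzma was at 194, 180.1, 573 and 154 against 102, 106, 231 and 92.7 CPM, lower in 4 of 4 mice (log2 -1.05 ± 0.68, unadjusted p = 0.135, adjusted p = 1, edgeR, SE). Ms4a4b was at 119, 162, 262 and 80.5 against 66.9, 110.5, 129 and 37.5 CPM, also lower in 4 of 4 mice (log2 -0.86 ± 0.48, unadjusted p = 0.0838, adjusted p = 1, edgeR, SE). The groups overlapped for all 10 genes, beside 0.778% of all genes lower and 0.839% higher without overlap.

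In glioma monocytes the direction varied with the mouse. The GFPpos sum was 1.65, 1.04 and 0.785 times the GFPneg sum in mice 22, 24 and 26. None of the 10 genes passed edgeR's quasi-likelihood test or had an unadjusted p under 0.05, where 0.0% and 6.39% of all genes did. Their median log2 fold change was 0.36, beside 0.0686 over all genes, and it was -1.68, beside -1.37, when libraries were scaled by spike-in RNA, with all 10 below 0 in place of 3 and the GFPpos sum lower in 3 of 3 mice. Cd8a was the only member lower in GFPpos cells of all 3 mice, at 35.1, 101 and 36.8 against 32, 47.7 and 25.9 CPM, beside 16.9% of all genes.

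**Figure D4:**
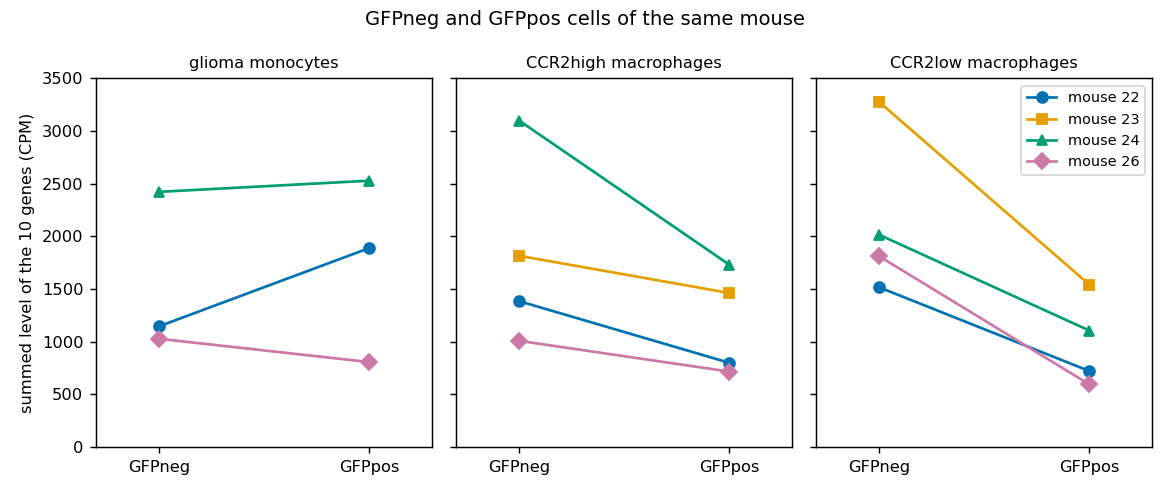
Summed level of the 10 genes in CPM in GFPneg and GFPpos cells, with a line for each mouse, for glioma monocytes, CCR2high macrophages and CCR2low macrophages. The GFPpos end of the line is the lower one in all 4 mice for both macrophage populations and in mouse 26 for glioma monocytes, and the higher one in mice 22 and 24.

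The difference between the cell types in this GFP effect was tested as an interaction. For none of the 10 genes did the effect differ after adjustment between any 2 of the 3 cell types. Of all 11566 genes tested, 0 did so in each of these differences. The smallest unadjusted p was that of Klrd1, whose log2 fold change was higher by 2.05 ± 0.72 (SE) in glioma monocytes than in CCR2low macrophages (edgeR, unadjusted p = 0.00849, adjusted p = 1.0). In that difference 394 of the 11566 genes tested had an unadjusted p under 0.05.

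**Figure D5:**
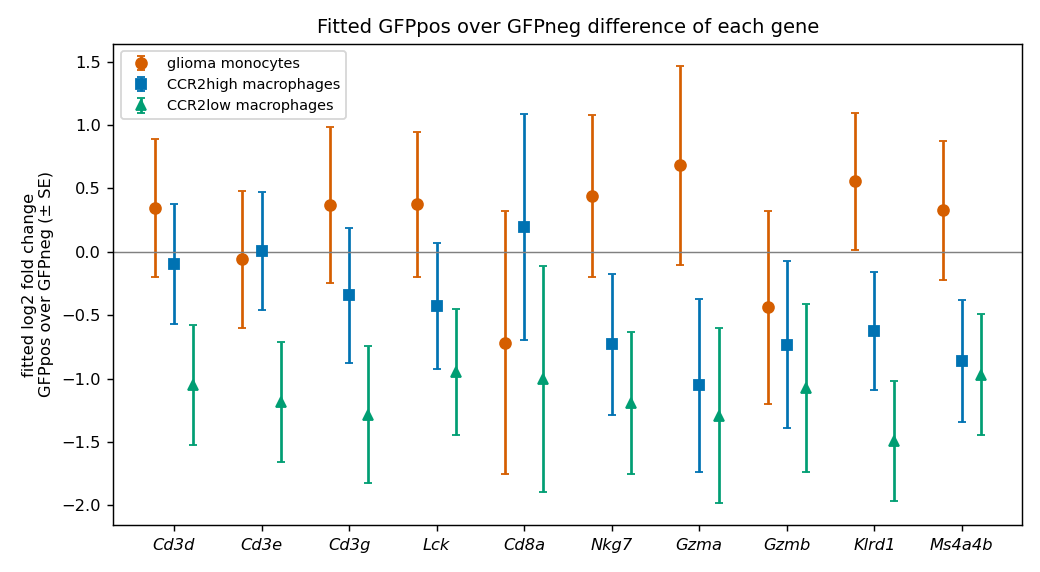
Fitted log2 fold change of GFPpos over GFPneg cells (points) with its SE (bars) for each gene and cell type. All 10 points of CCR2low macrophages lie below 0, those of CCR2high macrophages lie from -1.05 to 0.20, and those of glioma monocytes lie on both sides of 0.

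Among GFPneg macrophages, the CD3 genes had lower means in CCR2high than in CCR2low cells, and the granzymes had higher means. Cd3e was at 73.8, 100.1, 102 and 41.4 CPM in CCR2high and 171, 238, 164 and 113 CPM in CCR2low macrophages (log2 -1.11 ± 0.47, unadjusted p = 0.026, adjusted p = 1, edgeR, SE). Cd3d was at 51.7, 78.8, 90.1 and 50.8 against 115, 187, 138 and 103 CPM (log2 -1.0 ± 0.47, unadjusted p = 0.0444, adjusted p = 1, edgeR, SE). Neither gene overlapped between the groups, and Lck (149, 174, 237 and 91.5 against 280.2, 296, 245 and 239 CPM) did not either. Of the set, 3 of 10 genes were lower without overlap, beside 1.63% of all genes, 5 of 10 were lower in every mouse, beside 9.1%, and 0 of 10 passed after adjustment, beside 0.0%. The median of the 10 was -0.54, beside -0.00889 over all genes. Scaled by spike-in RNA these medians were -0.38 and 0.13.

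Gzma was at 194, 180.1, 573 and 154 CPM in GFPneg CCR2high and 44.6, 246, 136 and 154 CPM in GFPneg CCR2low macrophages, higher in 2 of 4 mice (log2 0.92 ± 0.68, SE). Gzmb was at 355, 538, 999 and 297 against 196, 813, 395 and 453 CPM, higher in 2 of 4 mice as well. Klrd1 (30.9, 50.1, 49.5 and 44.8 against 22.6, 88, 29.6 and 56.4 CPM) and Ms4a4b (119, 162, 262 and 80.5 against 138, 224, 197 and 107 CPM) overlapped widely.

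Further T and NK cell genes were looked up in lists that hold none of the 10. Of 28 T cell genes, 27 had a log2 fold change below 0 in GFPneg CCR2high against CCR2low macrophages, with a median of -0.84 (-0.63 with spike-in scaling), and none passed after adjustment. Of 22 tested NK and granule genes, 14 were above 0, with a median of 0.16 (0.33 with spike-in scaling), and none passed after adjustment. The NK cell receptors Ncr1 (NKp46) and Klrb1c (NK1.1), named after their values were seen, were at 9.61 to 30.4 and 28.4 to 89.1 CPM in GFPneg CCR2high and at 0 to 8.73 and 5.51 to 20.8 CPM in GFPneg CCR2low macrophages. Neither receptor overlapped between the groups, as for 1.5% of all genes that were higher without overlap, and 8 of the 22 tested genes of their list lay below 0.

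On the T cell side of the same comparison, Trac, the constant chain of the alpha-beta T cell receptor, was at 71.8 to 139.6 CPM in CCR2high and 167 to 252 CPM in CCR2low cells. Cd4, the co-receptor of helper T cells, was at 32.3 to 58 against 103 to 148 CPM. Both were also named after their values were seen. Markers of B cells (91 to 290.4 against 159 to 1065 CPM, 7 of 7 below 0), plasma cells (107 to 479 against 365 to 1792 CPM, 3 of 3 below 0) and neutrophils (21.4 to 387 against 99.1 to 2168 CPM, 8 of 8 below 0) had fitted values in the direction of the T cell genes, and so had those of microglia (2080.1 to 4311 against 3177 to 8268 CPM, 6 of 6 below 0, median -0.86). Markers of dendritic cells (101 to 524 against 151 to 590.2 CPM, 6 of 7 above 0, median 1.21) and erythroid cells (0.979 to 51.2 against 0 to 32.7 CPM, 4 of 4 above 0) had fitted values in the other direction. Pax5 was at 0 in all 4 GFPneg CCR2high replicates. Their part in the result was not tested.

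Between GFPpos CCR2high and GFPpos CCR2low macrophages the 10 genes had a median log2 fold change of 0.05, and 0 of 10 passed edgeR's quasi-likelihood test after adjustment or had an unadjusted p under 0.05, beside 0.0% and 1.48% of all genes. Gzma was at 102, 106, 231 and 92.7 CPM in CCR2high and 59.5, 102, 26.7 and 48.6 CPM in CCR2low cells, higher in 4 of 4 mice, and so was Klrd1 (22.3, 32.2, 28.9 and 30.3 against 7.03, 23, 23.9 and 15.7 CPM), which makes 2 of 10, beside 7.16% of all genes. The CD3 subunits overlapped, as for Cd3e with 59.5, 98.1, 117 and 44 against 67.9, 101, 99.5 and 32.4 CPM.

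GFPneg glioma monocytes were compared with the GFPneg macrophages of the same brains. Against CCR2high macrophages 0 of 10 genes passed edgeR's quasi-likelihood test after adjustment, beside 0.182% of all genes, and none had an unadjusted p under 0.05, beside 5.38%. Against CCR2low macrophages 0 of 10 passed, beside 1.21%, and none had an unadjusted p under 0.05, beside 8.46%. Cd3d, at 54.7, 107 and 38.1 CPM in the monocytes, had the lowest fitted value in the latter comparison (log2 -1.03 ± 0.52, unadjusted p = 0.0592, adjusted p = 0.636, edgeR, SE), and the 3 CD3 subunits and Lck were lower in the monocytes of all 3 shared mice, 4 of 10 beside 19.7% of all genes.

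GFPpos glioma monocytes had higher means than GFPpos macrophages for most of the set, with wide spread. Against CCR2low macrophages 9 of 10 means were higher, 0 of 10 genes passed edgeR's quasi-likelihood test after adjustment, beside 0.164% of all genes, and 3 of 10 were higher at an unadjusted p under 0.05, beside 4.54%. Without the GFPpos monocyte library of mouse 24 that count was 1, and the median log2 fold change of the 10 was 0.17 in place of 0.67. Klrd1 was at 73.6, 59.2 and 28.9 CPM in the monocytes and 7.03, 23, 23.9 and 15.7 CPM in CCR2low macrophages, which do not overlap (log2 1.62 ± 0.50, unadjusted p = 0.00343, adjusted p = 0.36, edgeR, SE), as for 4.47% of all genes. Ms4a4b was at 242, 362 and 82.6 against 74, 80.3, 134 and 50.7 CPM (log2 1.42 ± 0.51, unadjusted p = 0.0098, adjusted p = 0.499, edgeR, SE), and Gzma at 162, 362 and 87.5 against 59.5, 102, 26.7 and 48.6 CPM (log2 1.77 ± 0.73, unadjusted p = 0.023, adjusted p = 0.633, edgeR, SE).

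Against GFPpos CCR2high macrophages 0 of 10 passed, beside 0.0173% of all genes, and Ms4a4b alone had an unadjusted p under 0.05 (log2 1.41 ± 0.51, unadjusted p = 0.0105, adjusted p = 0.683, edgeR, SE), beside 5.82%. Without the GFPpos monocyte library of mouse 24 that count was 0 and the median log2 fold change was 0.09 in place of 0.67, and without that of mouse 26 the count was 3 and the median 1.05. Markers of other cells also had higher fitted values in GFPpos monocytes. Against GFPpos CCR2low macrophages, 7 of 8 neutrophil (median 1.55, 85.2 to 2811 against 9.37 to 851 CPM), 6 of 7 dendritic cell (median 1.91, 206 to 461 against 112 to 225 CPM) and 4 of 4 erythroid markers (median 1.37, 0 to 90.9 against 0 to 33.7 CPM) were above 0, while 5 of 6 microglia markers were below 0. Against GFPpos CCR2high macrophages these counts above 0 were 7 of 8, 5 of 7 and 4 of 4. Their part in the result was not tested. The GFPpos monocyte libraries of mice 22 and 24 carried more spike-in RNA than the other brain libraries, with 8.68% and 1.29% of the counts in the 2 libraries of mouse 22 and 5.16% in mouse 24, against 0.284% to 1.17% in the rest. Scaled by spike-in RNA, the fitted folds of all 10 genes were below 0 in both comparisons, which turned the sign of 9 against CCR2low and 8 against CCR2high macrophages, and the median of all genes turned too (to -1.70 against CCR2low and -1.22 against CCR2high macrophages). The part of RNA input in these values was not tested.

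The 10 genes varied together from replicate to replicate in the brain. Over 22 replicates, taken as deviations from the population mean of log2 CPM, all 45 pairs of genes had a positive Pearson correlation, from 0.388 (Ms4a4b with Klrd1) to 0.967 (Cd3g with Ms4a4b), with a median of 0.638. The replicates share 4 mice and the correlations are descriptions. Cd3d and Cd3g, the neighbors on chromosome 9, had 0.955, and Cd3e had 0.409 with Klrd1. The annotated span of Cd3e, from gene start to gene end, overlaps 2 other genes, whose part in its level was not tested.

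Part of that common variation went with the mouse. The mean log2 deviation of the set from the population mean was -0.31 in mouse 22, 0.53 in mouse 23, 0.50 in mouse 24 and -0.55 in mouse 26. Brain sums ran from 594 to 1810.5 CPM in mouse 26 and from 1105 to 3100.0 CPM in mouse 24. The series held no glioma monocyte library of mouse 23. The monocyte means therefore rest on 1 of the higher and both of the lower mice.

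Among genes outside the set, those whose log2 CPM ran most like the mean of the 10 over all 28 replicates were Trac (Pearson r = 0.946), the T cell adhesion receptor Cd2 (0.933), the GTPase Gimap7 (0.931), the T cell adaptor Sh2d2a (0.929) and the cytotoxic lymphocyte protease Ctsw (0.925), followed by Gimap4, Tes, Ccnd2, Ptprcap and Cd6. Over the 22 brain replicates alone they were Ctsw (0.924), Sh2d2a (0.918), Tnfrsf18 (0.914), Trbc1 (0.899), Gimap4 (0.898), Trbc2 (0.898), Trac (0.893), Cd2 (0.888), Klrc1 (0.875) and Il2rb (0.871). Trbc1 and Trbc2 encode the constant chains of the T cell receptor beta chain, and Il2rb a chain of the interleukin-2 receptor. Of the 10 brain genes, 4 are in the T cell list and 3 in the NK list. The 28 replicates hold the blood replicates that chose the genes, so the first ranking is not independent of that choice. Neither ranking was taken within populations, and the correlations are descriptions.

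The T cell list summed to 41.6 to 325 CPM in Ly6Chigh and 1373 to 2109.7 CPM in Ly6Clow blood monocytes, and the NK list to 225 to 409 and 994 to 1207 CPM. Ctla4 of the T cell list and Ncr1, Klrc2, Gzmc, Eomes and Ifng of the NK list had no count in any Ly6Chigh replicate. In the GFPpos against GFPneg comparison of CCR2low macrophages, 27 of 28 T cell genes (median log2 fold change -1.08) and 17 of 22 tested NK genes (median -0.68) were below 0, and none passed after adjustment. Foxp3, the regulator of regulatory T cells, was at 46.3 to 54 CPM in GFPneg and 11 to 29.3 CPM in GFPpos CCR2low macrophages and at 1.05 to 6.44 and 0.771 to 2.83 CPM in Ly6Chigh and Ly6Clow blood monocytes. The 2 macrophage ranges did not overlap, as for 1.7% of all genes that were lower without overlap. Foxp3 too was named after its values were seen, and its levels in the other brain populations are not given here.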

How the data were processed

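RNA of each sorted population was made into SMARTer Ultra Low Input and Nextera XT libraries with ERCC spike-in RNA. The authors used STAR on mm10 for alignment and Picard 1.8.4 to drop duplicates, and deposited whole-number read counts per gene symbol from HTSeq on the GRCm38.p3 annotation. The strand setting is not given in the sources used here. Reads outside any gene (6.28% to 17.4% of a library) or ambiguous between genes (1.58% to 1.90%) and the 92 spike-in RNAs stayed out of the library sizes.

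Of 30 libraries, 1 with under 6000 genes at 5 or more reads was left out, and the 2 libraries of 1 replicate were summed. The mouse was taken from the number in the sample titles. Counts of 11566 genes past filterByExpr, among them all 10 members, were scaled by TMM and fitted over the 8 populations with edgeR 4.0.16 in R 4.3.3 (quasi-likelihood test, Benjamini-Hochberg adjustment over all genes tested, threshold 0.05), with a prior count of 2 in log2 CPM. DESeq2 1.42.0 and other scalings, filters, sample sets and a mouse term were alternatives. Same-numbered replicates of different populations come from 1 animal, and over 31 such pairs their deviations from the population means had correlations from -0.0106 to 0.67, 28 of them over 0.1. The main fit held no mouse term, so its p-values treat replicates of 1 animal as independent. They rest on the spread between replicates within populations, estimated over all 8 populations together.

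The 10 genes and the marker lists were chosen with earlier results of these data known. Genes outside the set were named as the 10 most correlated with its mean, or from the T and NK cell lists where called in a brain comparison (none was). Ncr1, Klrb1c, Cd4 and Foxp3 were named outside this rule, after their values were seen. Gene models are from GENCODE vM21 and promoters from RefSeq, both on GRCm38.p6. All counts are of reads after removal of duplicates, and a floor of 3 counts for a count of 0 covers counting error only.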

Additional observations from a re-analysis of the deposited data

Results flagged for a closer look

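Gzma stood apart in mouse 24 in both CCR2high macrophage populations. In GFPneg cells its level was 573 CPM in mouse 24 and 154 to 194 CPM in the other 3 mice, and in GFPpos cells it was 231 CPM in mouse 24 and 92.7 to 106 CPM in the others. These were the only 2 of 44 sets of 4 mice in which the gap of 1 replicate passed Dixon's 95% critical value. Chance gives about 1 in 20, so 2 of 44 is near that share, and both hold the same gene and mouse. The Ly6Clow library of mouse 23 that failed the quality rule, which enters no comparison, held 1246 counts of the 10 genes, or 1141 CPM before TMM scaling.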

How the results depend on the processing

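None of the 10 genes passed in any of the 138 alternative fits of the 9 brain comparisons, which covered DESeq2's size factors and Wald test, spike-in scaling, other filters, single libraries, only the populations compared, the mouse block and leaving out each replicate, and the smallest adjusted p among them was 0.0862. With the mouse number as a replicate block 0 members passed in every comparison, as without the block. For GFPpos against GFPneg CCR2low macrophages 5 members had an unadjusted p under 0.05, 7 with the block, 6 with DESeq2's Wald test, 0 with spike-in scaling and 1 to 8 when single replicates were left out. The share of all genes at that threshold was taken in the main fit only. Such counts from the alternative fits, here and above, therefore have no share beside them. Spike-in scaling turned the sign of 35 of the 90 fitted log2 fold changes of the members, none of them for GFPpos against GFPneg CCR2low macrophages. Those given above by gene that turned were Ms4a4b against GFPpos CCR2high macrophages (1.41 to -0.56), and Klrd1 (1.62 to -0.70), Ms4a4b (1.42 to -1.22) and Gzma (1.77 to -0.47) against GFPpos CCR2low macrophages. The same scaling moved the median of all genes by over 1 log2 unit in these comparisons, to -1.22 and -1.70. Relative to that median, the members of GFPpos glioma monocytes lay at -0.03 and 0.12 in place of 0.60 and 0.63. A filter of 10 counts in every replicate left 2 of the 10 genes. Summed levels and the blood median moved by less than 1 SD with DESeq2's size factors, with first libraries alone and without single replicates. Spike-in scaling, added after the data were seen, moved the mean sum by more in Ly6Clow blood monocytes (684 CPM), GFPpos glioma monocytes (589), GFPneg CCR2high (2872) and GFPpos CCR2low macrophages (1634), and the blood median to -2.01. The cause was not tested. With 3 or 4 mice and adjustment over 11566 genes, differences of the size seen here were not called, which does not show that the levels are alike.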
